A study of Mus musculus with 6 samples.

Results

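Tubulin isotypes are the products of separate genes for the alpha and beta subunits of microtubules. The set described here holds 10 listed genes, 7 for beta tubulins and 3 for alpha tubulins, out of 53801 gene entries in a deposited count table. They were taken by symbol, and all 10 were found. The table held 16 protein-coding alpha and beta tubulin genes in all. RNA was counted in 6 libraries of mouse fetal liver cells collected at E12.5 to E13.5 from mice that carry Cas9 and EGFP at the Rosa26 locus under the CAG promoter. All 6 received a guide named sgGata1, carry Gata1s in their labels (a truncated GATA1, the transcription factor of red cells and megakaryocytes) and expressed miR-125b from a lentivirus. The tested cells had a construct for FLAG-tagged Arid3a, a transcription factor that binds AT-rich DNA, and the control cells had one named LUC, with 3 libraries each. Doxycycline at 1 μg/mL for 48 h was given to both groups to switch the construct on. Whether replicates are separate animals or cultures is not in the labels; the p-values therefore reflect the spread among these libraries, and that may be technical.

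A microtubule is built from alpha and beta tubulin dimers, and vertebrates have several genes for each subunit whose proteins differ mostly in their carboxy-terminal tails. Megakaryocytes, the cells that shed platelets, use microtubules to extend proplatelets, and a ring of microtubules gives the resting platelet its disc shape. Beta-1 tubulin, encoded by Tubb1, is the beta isotype known for its restriction to megakaryocytes and platelets, and mice without it have too few and round platelets. The alpha isotypes encoded by Tuba4a and Tuba8 are also found in platelets. These 3 genes are called platelet isotypes below. Tubb5, Tubb4b, Tubb2a, Tubb6 and Tuba1b are used by many cell types and are called general isotypes, and Tubb3 and Tubb2b are best known from neurons.

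The tails of 5 beta genes are shown because the tail is the part of the protein best known to differ between isotypes; those of Tubb2a and Tubb2b are nearly the same. Each line gives the last 60 coding bases, 5′ to 3′ with the stop codon, from GENCODE M21 transcripts. Capitals mark bases that were not identical to the aligned base of Tubb5 or that stood against a gap. Each tail was aligned with that of Tubb5 separately, so the same base can be marked differently in different lines.
Tubb1: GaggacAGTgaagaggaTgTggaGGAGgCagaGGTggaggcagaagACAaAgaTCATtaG
Tubb4b: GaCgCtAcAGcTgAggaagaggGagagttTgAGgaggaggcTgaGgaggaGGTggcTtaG
Tubb2a: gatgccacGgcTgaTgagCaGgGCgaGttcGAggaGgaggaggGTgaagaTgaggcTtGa
Tubb2b: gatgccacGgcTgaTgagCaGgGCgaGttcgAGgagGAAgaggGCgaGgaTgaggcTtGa
Tubb5: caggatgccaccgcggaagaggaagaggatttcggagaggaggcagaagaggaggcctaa

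Over the whole coding sequence, Tubb1 was 74.9% identical to Tubb5, while Tubb2b was 96.5% identical to Tubb2a. Reads of Tubb1 should therefore be easy to place, and those of Tubb2a and Tubb2b less so. Cutting the annotated transcripts into words of 50 bases, 0 of 1357 Tubb1 words occurred in a transcript of any other gene on either strand. For Tubb3 and Tubb6 the share was also 0%, and for Tubb5 it was 0.0892%. In contrast, 75.1% of Tuba1b words occurred elsewhere, most of them in Tuba1c, and 49.6% of Tubb2a and 36.9% of Tubb2b words did, most of them shared by this pair. For Tubb4b the share was 41.3%, most of it with the pseudogene Tubb4b-ps1. For Tuba4a (35.4%) and Tuba8 (14.7%) most of the shared words came from genes on the opposite strand, Stk16 and Gm15856. The treatment of reads with several possible origins and of strand is not stated in the labels, so the values of these 6 genes are uncertain.

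Library totals without the construct's entry ran from 15728150 to 18249053 counts. The Arid3a-FLAG construct was counted 3348, 3044 and 2758 times with Arid3a-FLAG and 0 times in each LUC library. In a principal component analysis, LUC library 2 stood apart on component 2 (24% of variance), so values without it are given beside the results it touches. Among tested genes, 31.3% had their highest level in LUC library 2, and among the 9 tested tubulin genes 8 did. The cells carried RNA of megakaryocyte markers and of mast cell and basophil markers. The 15 megakaryocyte markers summed to between 7303 and 7844 CPM in Arid3a-FLAG libraries and between 6757 and 8503 CPM in LUC libraries. Within that overlapping sum, most of it Pf4 and Itga2b, 6 of the 15 were higher and 1 lower past the threshold (median log2 fold change 0.56). Over all tested genes 3.43% were called higher and 3.87% lower, and these shares also stand behind the counts of the next marker lists. The 12 erythroid markers summed to between 477.9 and 609.8 CPM with Arid3a-FLAG and between 319.1 and 369.9 CPM with LUC, and of 10 tested 3 were higher and 1 lower. The part of these cell type markers in the tubulin levels was not tested. The 9 mast cell and basophil markers summed to between 878.2 and 1532 CPM in Arid3a-FLAG libraries and between 1928 and 2249 CPM in LUC libraries. Of the 8 tested, 0 were higher and 3 lower. Of 6 hepatocyte markers, 5 averaged under 1 CPM. The other, Afp, had 19.7, 15.7 and 19 CPM with Arid3a-FLAG and 18.8, 25.9 and 21.6 CPM with LUC.

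Tubb1 had few counts in all 6 libraries. How far the annotated ends of the gene, described below, limit these counts was not tested. It had 28, 42 and 21 counts in Arid3a-FLAG libraries and 24, 16 and 28 counts in LUC libraries. Scaled to library size this was 1.74, 2.44 and 1.32 CPM with Arid3a-FLAG, against 1.39, 1.05 and 1.51 CPM with LUC. The groups overlapped, with Arid3a-FLAG library 2 the highest and LUC library 2 the lowest. Counting error alone spans 1.76 to 3.30 CPM for the highest library and 0.598 to 1.70 CPM for the lowest (exact Poisson intervals at 95%, which cover counting error only). Tubb1 (ENSMUSG00000016255, mm10 chromosome 2, 174450695 to 174457882, plus strand) averaged 1.83 ± 0.566 CPM with Arid3a-FLAG and 1.31 ± 0.241 CPM with LUC (SD, n = 3 each). Its log2 fold change was 0.47 (SE 0.32, 95% interval -0.24 to 1.19, adjusted p = 0.388). A rise of more than 2.28-fold lay outside that interval. The log2 value was 0.36 without LUC library 2. With 1 library left out the log2 fold change ran from 0.21 to 0.66 and the adjusted p from 0.323 to 0.813.

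Levels of different genes are compared below per kilobase of exon, as CPM per kb. On that scale Tubb1 averaged 1.12 over the 6 libraries, and 81.6% of the 13622 tested genes with an annotated length were higher. Of the 15 megakaryocyte markers, 13 were higher than Tubb1, and the exceptions were Gp6 (1.06 CPM per kb), the collagen receptor, and Vwf (0.755 CPM per kb), the adhesion protein von Willebrand factor. Pf4, a platelet chemokine, averaged 4911 CPM per kb, which was 4388 times the level of Tubb1. Itga2b, one chain of the platelet integrin for fibrinogen, averaged 352.6 CPM per kb. Nfe2, which encodes a subunit of the transcription factor NF-E2 known in mice to activate Tubb1, was at 270.0, 266.9 and 275.8 CPM with Arid3a-FLAG and at 254.5, 307.1 and 275.4 CPM with LUC. The Nfe2 values overlapped between groups (log2 fold change -0.04, SE 0.10, adjusted p = 0.814). The annotated Tubb1 transcript ends at its stop codon, with 0 bases after the coding sequence against 148 to 1394 bases in the transcripts used for the other 9 genes. Reads beyond that end are not part of the gene in this annotation, and the annotation release that the authors counted on is not stated in the labels.

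**Figure D1:**
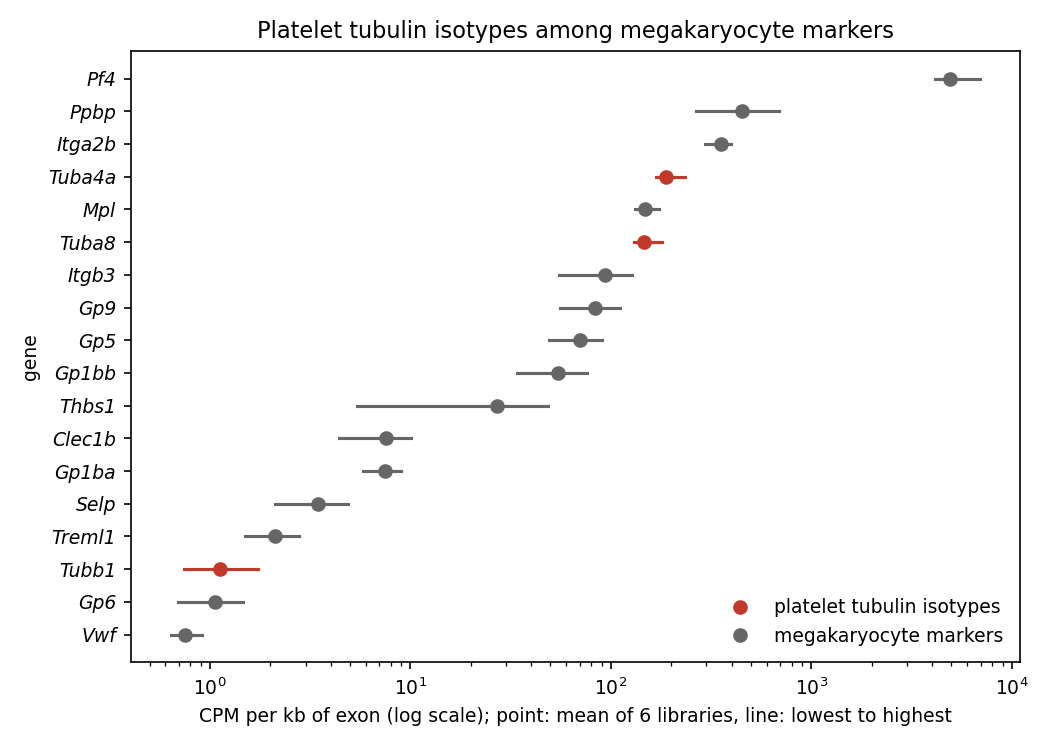
Mean level (points) and lowest to highest library (lines) in CPM per kb of exon, on a log axis, of 15 megakaryocyte markers (grey) and the 3 platelet tubulin isotypes (red) over all 6 libraries. Tubb1 lies near the bottom at 1.12 CPM per kb, beside Gp6 and Vwf, while Tuba4a and Tuba8 lie among the well expressed markers at 188.7 and 146.1 CPM per kb.

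The alpha isotypes of platelets were abundant. Tuba4a (chromosome 1, 75214228 to 75219865, minus strand) had 694.1, 696.6 and 666.5 CPM in Arid3a-FLAG libraries and 621.7, 866.3 and 645.4 CPM in LUC libraries. The LUC libraries spread widely around the Arid3a-FLAG ones, with LUC library 2 the highest and LUC library 1 the lowest of all 6. The log2 fold change was -0.05 (SE 0.13, 95% interval -0.34 to 0.24, adjusted p = 0.833). Without LUC library 2 it was 0.13 (adjusted p = 0.173). Tuba8 (chromosome 6, 121210696 to 121226854, plus strand) had 329.0, 333.7 and 308.7 CPM in Arid3a-FLAG libraries and 308.1, 408.8 and 295.5 CPM in LUC libraries. Its log2 fold change was -0.06 (SE 0.13, 95% interval -0.34 to 0.22, adjusted p = 0.800), and 0.11 without LUC library 2 (adjusted p = 0.246). The direction of both alpha isotypes thus turned on LUC library 2, and neither passed the threshold with or without it. As fold changes, the 95% intervals ran from 0.789 to 1.18 for Tuba4a and from 0.792 to 1.16 for Tuba8.

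The general isotypes made up most of the tubulin RNA. Tubb5 (chromosome 17, 35833921 to 35838306, minus strand), the main beta tubulin of dividing cells, had 1715, 1732 and 1695 CPM in Arid3a-FLAG libraries and 1892, 2278 and 1842 CPM in LUC libraries. Every Arid3a-FLAG library was below every LUC library, yet the change did not pass the threshold (log2 fold change -0.23, SE 0.12, 95% interval -0.48 to 0.03, adjusted p = 0.254). The value for Tubb5 was -0.11 without LUC library 2 (adjusted p = 0.218). Tuba1b (chromosome 15, 98931425 to 98934565, minus strand), a widely used alpha tubulin, had 933.0, 889.3 and 962.6 CPM in Arid3a-FLAG libraries and 986.5, 1417 and 959.6 CPM in LUC libraries. Its groups overlapped at a single pair of libraries, Arid3a-FLAG library 3 and LUC library 3. Its log2 fold change was -0.27 (SE 0.15, 95% interval -0.60 to 0.06, adjusted p = 0.277), and -0.05 without LUC library 2.

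Tubb4b (chromosome 2, 25222160 to 25224702, minus strand), a beta isotype known from cilia as well as from most tissues, had 661, 659.3 and 674.9 CPM in Arid3a-FLAG libraries and 624.2, 844.1 and 655.1 CPM in LUC libraries. The log2 fold change of Tubb4b was -0.09 (SE 0.12, adjusted p = 0.690), and 0.07 without LUC library 2. Tubb6, a broadly used beta isotype, had 113.7, 121.3 and 119.4 CPM in Arid3a-FLAG libraries, against 118.7, 161.5 and 135.3 CPM in LUC libraries (log2 fold change -0.23, SE 0.11, adjusted p = 0.230). Tubb6 was at -0.09 without LUC library 2 (adjusted p = 0.421). For both genes the Arid3a-FLAG libraries lay close together and the LUC libraries spread around or above them. Tubb2a had 67.7, 64.5 and 70.4 CPM in Arid3a-FLAG libraries and 57.3, 79.4 and 76.5 CPM in LUC libraries, which came to -0.07 as a log2 fold change (SE 0.12, 95% interval -0.34 to 0.20, adjusted p = 0.745), and to 0.03 without LUC library 2.

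Tubb2b was the member nearest the threshold. This gene (chromosome 13, 34126748 to 34130466, minus strand) had 28.6, 24.8 and 29.6 CPM in Arid3a-FLAG libraries and 31.1, 41.6 and 39.2 CPM in LUC libraries. Each Arid3a-FLAG library was below each LUC library. The log2 fold change of -0.43 (SE 0.13, 95% interval -0.72 to -0.14) had an unadjusted p of 0.0071 and an adjusted p of 0.071 in edgeR. DESeq2 called it lower (log2 fold change -0.42, adjusted p = 0.044), as did edgeR with no filter on low counts (-0.41, adjusted p = 0.023). Its value was -0.33 without LUC library 2 (adjusted p = 0.074), and with any 1 library left out the adjusted p ran from 0.050 to 0.266. Reads of Tubb2b and Tubb2a are hard to tell apart, as described above. The counts of Tubb2a and Tubb2b added together differed by -0.19 as a log2 fold change in edgeR (SE 0.12, adjusted p = 0.353).

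Tubb3, the beta isotype used as a neuronal marker, had 2, 4 and 0 counts in Arid3a-FLAG libraries and 0, 1 and 0 counts in LUC libraries. Too low for the filter, it was the one member left untested. For a library with 0 counts, the exact Poisson 95% interval reaches up to 3.69 counts. The 10 neuronal markers were each under 1 CPM and summed to between 0.879 and 1.43 CPM in Arid3a-FLAG libraries and between 0.751 and 1.03 CPM in LUC libraries.

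**Figure D2:**
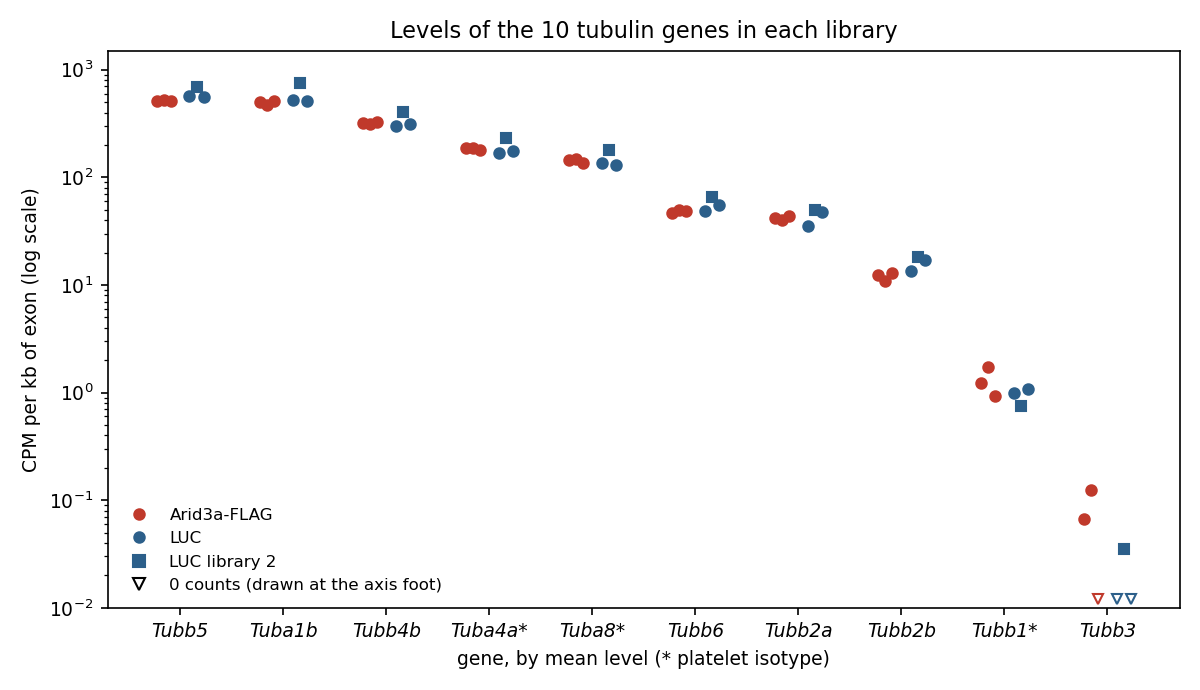
Level of each of the 10 tubulin genes in each library, in CPM per kb of exon on a log axis, with Arid3a-FLAG libraries in red at the left and LUC libraries in blue at the right of each gene; LUC library 2 is a square and libraries with 0 counts are open triangles at the foot. Tubb5 and Tuba1b lie at or above 474.3 CPM per kb in every library, Tubb1 at or under 1.73, and the square is the highest point of 8 of the 9 tested genes.

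By mean level per kilobase, the order was Tubb5 (558.8), Tuba1b (546.5), Tubb4b (328.8), Tuba4a (188.7), Tuba8 (146.1), Tubb6 (52.7), Tubb2a (43.0), Tubb2b (14.2), Tubb1 (1.12) and Tubb3 (0.0376). The ranges over 6 libraries of Tubb5 and Tuba1b overlapped, and Tubb5 was the higher in 4 of 6. The ranges of Tuba4a and Tuba8 overlapped too, and so did those of Tubb6 and Tubb2a, but the first of each pair was higher in 6 of 6 libraries. The other neighbours in this order had separate ranges. Dividing instead by the length of 1 transcript per gene, which was tried after seeing the data, left the order as it was. Only 0.543% of tested genes were higher than Tubb5 and 1.76% higher than Tuba4a.

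Of the 10 genes, 9 were tested, 0 were higher and 0 were lower past the threshold, against 3.43% of all 13631 tested genes called higher and 3.87% called lower (7.29% in either direction). With DESeq2 1 member was lower, Tubb2b, against 5.8% of the tested genes, and with no filter on low counts the same 1 was lower, against 4.5% of 23914 genes. At an unadjusted p under 0.05 there was 1 member, Tubb2b, against 25.6% of all tested genes. Among the tested members 8 log2 fold changes were below 0 and 1, that of Tubb1, was above, with a median of -0.09 against -0.03 over all tested genes. Without LUC library 2, 4 were below 0 and 5 above, with a median of 0.03 against 0.00. The groups did not overlap for 2 members, Tubb5 and Tubb2b, both lower with Arid3a-FLAG, against 16.5% of all tested genes that were apart in that direction and 33.1% apart in either. A p that misses the threshold does not show that a gene stayed the same, and the 95% intervals give the sizes that these libraries leave possible.

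**Figure D3:**
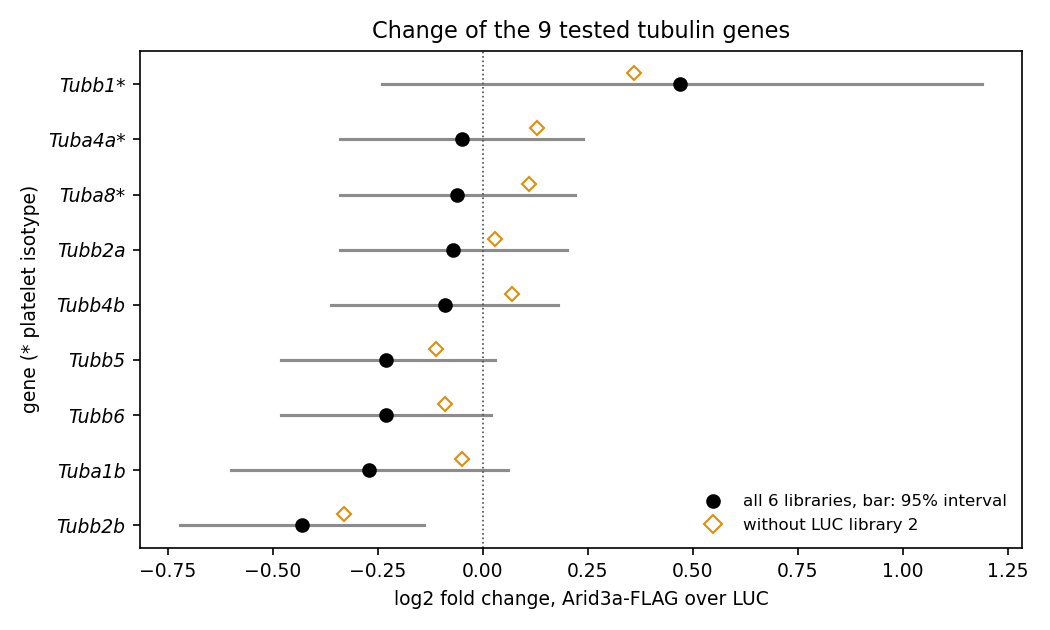
Log2 fold change of Arid3a-FLAG over LUC for the 9 tested genes, with 95% intervals (bars) from all 6 libraries and the value without LUC library 2 (open diamonds). Only the interval of Tubb2b, -0.72 to -0.14, leaves out 0, and 5 diamonds lie above 0.

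Platelet isotypes were next set against general ones within each library, which removes the scaling between libraries. The shares and ratios here are descriptions with no test, since the members were chosen with results known. With 3 libraries a group an exact two-sided permutation test could not go below 0.1. Tubb1 took 0.132%, 0.185% and 0.0998% of the summed beta tubulin level per kb in Arid3a-FLAG libraries and 0.102%, 0.0608% and 0.109% in LUC libraries, so that the groups overlapped. Tuba4a and Tuba8 together took 40.1%, 41.4% and 38.1% of the 3 alpha genes in Arid3a-FLAG libraries, and 36.6%, 35.4% and 37.3% in LUC libraries. Here the lowest Arid3a-FLAG library was above the highest LUC library, by less than the spread among the Arid3a-FLAG libraries. Tuba1c and Tuba1a, alpha genes outside the list, averaged 129.3 and 68.4 CPM per kb and are not part of these shares.

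The 3 platelet isotypes averaged 18.7% ± 0.699 of the level of all 10 genes with Arid3a-FLAG and 17.1% ± 0.225 with LUC (SD, n = 3 each). Nearly all of this share was Tuba4a and Tuba8, because Tubb1 was so low. Among the beta genes, Tubb5 averaged 55% ± 0.63 with Arid3a-FLAG and 56.9% ± 1.65 with LUC, and Tubb4b averaged 34% ± 0.4 with Arid3a-FLAG and 31.9% ± 1.07 with LUC. Among ratios chosen after the values were seen, Tubb2b over Tubb2a was at 0.297, 0.270 and 0.295 in Arid3a-FLAG libraries and 0.381, 0.368 and 0.360 in LUC libraries. All 3 Arid3a-FLAG libraries were below all LUC libraries, and LUC library 2 lay between the other LUC libraries. Reads of this pair are hard to place, as described above, so its ratio is uncertain. Groups were also apart, with Arid3a-FLAG above, for Tuba4a over Tuba1b, Tuba8 over Tuba1b and Tubb4b over Tubb5. They overlapped for Tubb1 over Tubb5. The alpha ratios largely repeat the alpha share given above. How often ratios of other genes were apart was not worked out; for levels of single genes it was 33.1% of all tested genes. Many words of Tuba1b (75.1%), Tubb4b (41.3%) and Tuba4a (35.4%) occur in other genes. These ratios and the alpha share are therefore uncertain too.

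**Figure D4:**
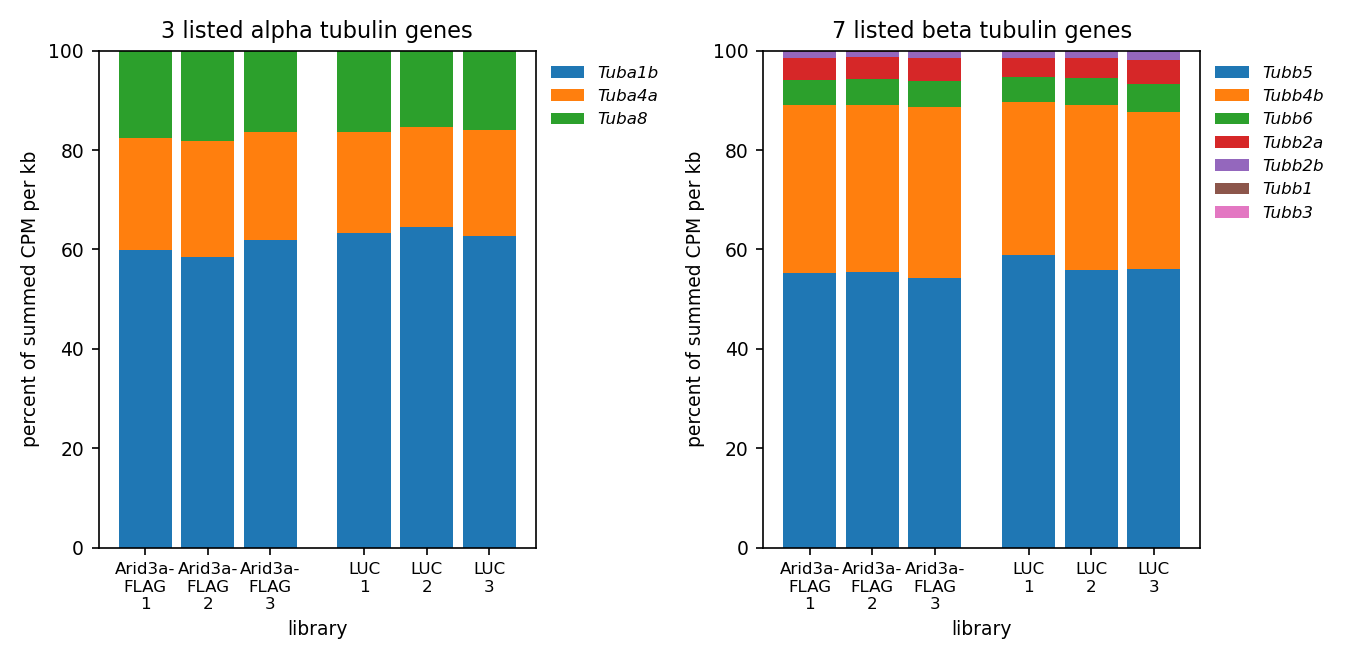
Percent of the summed level per kb taken by each of the 3 alpha genes (left) and 7 beta genes (right) in each library, Arid3a-FLAG libraries 1 to 3 at the left and LUC libraries 1 to 3 at the right of each panel. Tuba1b takes 58.6% to 61.9% of the alpha level in Arid3a-FLAG libraries and 62.7% to 64.6% in LUC libraries, and Tubb1 and Tubb3 are too low to be seen.

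All 10 genes together summed to 4544, 4524 and 4528 CPM in Arid3a-FLAG libraries and 4641, 6097 and 4650 CPM in LUC libraries. The Arid3a-FLAG libraries lay within a narrow band just under LUC libraries 1 and 3, and LUC library 2 was far above. Because these are bulk samples, fewer cells of a type and less RNA per cell cannot be told apart. The 18 G2/M markers of dividing cells summed to between 3823 and 3916 CPM with Arid3a-FLAG and between 4123 and 4278 CPM with LUC. Of these 18, 2 were lower past the threshold and 0 higher, against 3.87% and 3.43% of all tested genes, and 16 did not pass. Their log2 fold changes were below 0 for 11, with a median of -0.07 against -0.03 over all tested genes. The part of the G2/M markers in the levels of the general isotypes was not tested.

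Of 67 genes in 6 lists of other tubulins, folding factors, modifying enzymes, gamma tubulin complexes and partners, 57 were tested, 1 was higher and 0 were lower, against 3.43% and 3.87% of all tested genes (median log2 fold change -0.07, against -0.03 over all genes). In that union 10 genes had an unadjusted p under 0.05, against 25.6% of all tested genes, and DESeq2 called 3, against 11.5%. These 3 shares over all tested genes, 7.29% called by edgeR in either direction, 25.6% and 11.5%, stand behind the counts of each list that follows. The gene that rose was Ttll11, which encodes an enzyme that adds glutamate chains to tubulin. It had 45.3, 38.9 and 39.6 CPM in Arid3a-FLAG libraries and 20.3, 27.9 and 27.4 CPM in LUC libraries. All Arid3a-FLAG libraries were above all LUC libraries, and the log2 fold change was 0.71 (SE 0.13, 95% interval 0.42 to 1.01, adjusted p = 0.013). Without Arid3a-FLAG library 1 the call of Ttll11 was lost (adjusted p = 0.079). Without LUC library 2, Atat1, the acetyltransferase of alpha tubulin, was called lower (-0.64, adjusted p = 0.0099), as were the deglutamylase gene Agbl5 (-0.40, adjusted p = 0.015) and Tube1, epsilon tubulin (-0.46, adjusted p = 0.028). In that fit 4 machinery genes were lower and 2 higher, while 7.83% of all tested genes were called lower and 8.52% higher.

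Folding of new tubulin needs the chaperonin CCT, the prefoldin complex that hands proteins to it, and the cofactors that join alpha to beta. None of the 14 CCT and prefoldin genes passed in edgeR (4 had an unadjusted p under 0.05, near the 25.6% of all tested genes, and DESeq2 called 1). All 4 were prefoldin genes and lower with Arid3a-FLAG: Pfdn1 (0.023), Pfdn2 (0.016), Pfdn5 (0.011) and Pfdn6 (0.0096). The other prefoldin genes, Pfdn4 (0.154) and Vbp1 (0.473), and the CCT genes were not among them. The 8 CCT genes had log2 fold changes from -0.15 to 0.07 and the 6 prefoldin genes from -0.45 to -0.08. Pfdn6, a prefoldin subunit, was the one with the smallest p, at 79.8, 79.0 and 69.9 CPM with Arid3a-FLAG and 96.3, 115.0 and 84.7 CPM with LUC (log2 fold change -0.37, SE 0.12, adjusted p = 0.083). Among the 7 cofactors 0 passed in edgeR (1 had an unadjusted p under 0.05, and DESeq2 called 0). Arl2, a small GTPase that works with these cofactors, came nearest (log2 fold change -0.36, SE 0.12, adjusted p = 0.102). Without LUC library 3, Arl2 was called lower (-0.44, adjusted p = 0.049), as were the prefoldin subunits Pfdn6 (-0.44, adjusted p = 0.042), Pfdn2 (-0.46, adjusted p = 0.044) and Pfdn5 (-0.53, adjusted p = 0.048). These were the 4 machinery genes called lower in that fit, in which 3.16% of all tested genes were. Without LUC library 2 the chaperonin subunit Cct6a was called higher (0.26, adjusted p = 0.022).

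Among 7 tested other tubulin genes 0 passed in edgeR (2 had an unadjusted p under 0.05, near the 25.6% of all tested genes, and DESeq2 called 1). The nearest was Tubb4a, a beta tubulin of brain, at 6.46, 8.24 and 6.22 CPM with Arid3a-FLAG and 12.7, 7.98 and 11.7 CPM with LUC (log2 fold change -0.63, SE 0.20, adjusted p = 0.086). Without LUC library 2, the lowest of its LUC libraries, Tubb4a was called lower (-0.79, adjusted p = 0.0089). Tuba3a, Tuba3b and Tubal3 had 0 counts in every library. Of the 10 gamma tubulin ring complex genes, which seed microtubules, 0 passed in edgeR (1 had an unadjusted p under 0.05, and DESeq2 called 0). That was Tubg1, gamma tubulin itself, which had a log2 fold change of -0.24 with an SE of 0.09 (adjusted p = 0.124). Ttc5, the factor that reads the start of a new tubulin chain and triggers decay of its mRNA, was at 48.4, 46.5 and 50.4 CPM with Arid3a-FLAG and 54.3, 55.2 and 53.9 CPM with LUC. Its groups were apart but it did not pass (log2 fold change -0.17, SE 0.09, adjusted p = 0.250). Ranbp10, which binds beta-1 tubulin in platelets, did not pass either (log2 fold change 0.16, SE 0.14, adjusted p = 0.505).

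To describe whose pattern was most like that of Tubb1, log2 CPM centred on each gene's mean was compared over the 6 libraries among 7436 genes of at least 20 CPM. The 5 nearest were Pde5a (root mean square difference 0.175), Plxnc1 (0.182), Mylk (0.184), Trib2 (0.190) and Shank3 (0.196), against a median of 0.394 over those genes. With so few counts of Tubb1, much of its pattern can be counting error. The 5 nearest to Tubb5 were Unc119 (0.017), Utp11 (0.020), Babam1 (0.022), Naxd (0.024) and Faf1 (0.024), against a median of 0.188. In both lists the genes were picked as the nearest and so must lie below the median, which gives scale only. The patterns also include the difference between the groups.

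Promoters of 8 of the 10 genes were in the RefSeq table (GRCm38.p6, 250 bases before to 50 after the start). They were searched on both strands for 4 motifs. For GATA factors these were AGATAA, found in 11.2% of all 32851 promoters in the table, and TGATAA, found in 9.05%. For NF-E2 and AP-1 it was TGAGTCA, found in 5.2%, and for ARID3A it was ATTAAA, found in 13.9%. The search gave 1 match, AGATAA at position -206 of Tubb5, and the Tubb1 window held no match. No match says only that these letters are not in this window. The RefSeq starts can differ from the GENCODE positions given above. For Tubb1 the window, 174450345 to 174450644, ended before the GENCODE gene start at 174450695. For Tuba4a the window, 75219245 to 75219544, lay inside the GENCODE gene.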

How the data were processed

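The deposited values were read counts per gene in 6 libraries, whole numbers with no normalization. Per the submitters' processing notes, the authors used fastp, HISAT2 2.0.5 and featureCounts on mm10. Their settings, annotation release and strand use are not stated. GENCODE M21 (GRCm38) gave symbols, positions and exon lengths by Ensembl identifier; 95 of 53801 entries had no match, and the construct's entry was kept out of all fits. The test was that of edgeR 4.0.16 (R 4.3.3): filterByExpr, TMM factors, the quasi-likelihood F test with group as the only term, two-sided, with Benjamini-Hochberg adjustment over all 13631 tested genes and a threshold of 0.05. SEs were derived from the fold change and F. CPM used TMM-scaled library sizes; CPM per kb divides by the union of exons. The tests were checked on simulated counts. Also tried were upper quartile and RLE factors, no filter, at least 5 CPM in 3 libraries, DESeq2 1.42.0, voom in limma 3.58.1, a replicate block, each library left out, near-identical copies added and the 20 most abundant genes left out. All members are named. From each further list the rule named up to 3 called genes in each direction, or the gene with the smallest p; Ranbp10, Nfe2 and single markers were named beside it. Members, lists and tests were chosen with earlier results of these data known.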

Additional observations from a re-analysis of the deposited data

How the results depend on the processing

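With 1 library left out, 0 members were higher and 0 lower in each of 6 fits, and the log2 fold change of Tubb1 ran from 0.21 to 0.66. Tubb1 kept its direction and stayed short of the threshold in every fit that tested it; with at least 5 CPM required it was not tested. Counts over all genes ran from 115 to 1191 higher and from 118 to 1095 lower with 1 library left out; the largest were without LUC library 2. With no filter 869 were higher and 1076 lower, and with DESeq2 771 were higher. Under both, 1 member was lower, Tubb2b (-0.41 and -0.42). In the tubulin machinery lists, with 1 library left out, 0 to 2 genes were higher and 0 to 4 lower; DESeq2 called 2 lower. Directions turned without LUC library 2 for Tubb2a (0.03), Tubb4b (0.07), Tuba8 (0.11) and Tuba4a (0.13), and without LUC library 3 for Tubb2a (0.01); the cause was not tested. With 1 library left out these values ran from -0.18 to 0.03 for Tubb2a, -0.15 to 0.07 for Tubb4b, -0.12 to 0.11 for Tuba8 and -0.11 to 0.13 for Tuba4a. The replicate numbers are not stated to pair libraries, and same-numbered libraries' deviations correlated at -0.10, -0.11 and 0.12. With the replicate block, 410 genes were higher and 530 lower, Tubb1 was at 0.45, and no member passed. Only the pair numbered 3 correlated best with its own number. The difference in Tubb1's share of beta tubulin stayed between 0.025 and 0.068 percentage points, and that of the platelet isotypes between 1.34 and 2.02, under the alternatives tried. At 16 to 42 counts, depth limits what can be said of Tubb1.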
